A study of Sus scrofa with 12 samples.

Results

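The 9 genes described here act in the synthesis, binding and response of retinoic acid, and they were taken by symbol from the 19681 gene identifiers of a porcine RNA sequencing series. They are the binding proteins CRABP1 and CRABP2, the retinol transporter STRA6, the aldehyde dehydrogenases ALDH1A1, ALDH1A2 and ALDH1A3, the hydroxylase CYP26A1 and the receptors RARA and RARB, and all 9 were found. Expression was measured in 12 libraries, 3 biological replicates (A, B and C) in each of 4 groups. IEC2 were porcine iPS cells after 2 days in endothelial differentiation medium with CHIR99021, an inhibitor of GSK3. IEC4 were such cells after a further 2 days with BMP4, FGF2 and VEGF in place of CHIR99021. IEC12 were cells that then grew in EGM-2, an endothelial growth medium, with added VEGF until day 12 of induction. AOC was a porcine endothelial cell line, a continuous culture and not an induced cell, and it served as the endothelial reference. The IEC12 libraries were made without sorting for CD31, so they hold every cell type present in the culture. The iPS cells before induction and the sorted cells are not analysed here.

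Retinoic acid is made from retinol in 2 steps. Retinol enters cells partly through STRA6, retinol dehydrogenases oxidise it to retinal, and the ALDH1A enzymes oxidise retinal to retinoic acid. CRABP1 and CRABP2 carry retinoic acid in the cytoplasm, and CRABP2 is known to deliver it to the nuclear receptors. The receptors of the RAR family bind DNA together with RXR partners, and CYP26 enzymes break retinoic acid down. CYP26A1 and RARB are textbook target genes of the receptors and are therefore often read as signs of a retinoic acid response. In embryos the pathway patterns the body axis and takes part in the growth of blood vessels.

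Values are FPKM, in which the fragments of a gene are divided by the length of its transcripts and by the fragments of the library. This allows for length and depth only, so shares, ratios and other comparisons between different genes are approximate. Genes that reached an FPKM of 1 in at least 3 libraries of a fit were tested with limma on log2(FPKM + 1), a scale that understates differences between low values. A gene was called where its p-value, adjusted by Benjamini-Hochberg over all genes tested, was under 0.05. The 3 comparisons among IEC2, IEC4 and IEC12 share libraries with each other, and the 3 comparisons with AOC share the AOC libraries, so results of different comparisons are not independent. The cultures are bulk samples, in which fewer cells of a type and less RNA per cell cannot be told apart.

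The libraries differed in ways that bear on low values. The relative depth, estimated from the fixed steps of low FPKM values, ranged from 0.649 in IEC12 replicate A to 1.2 in IEC4 replicate A, and mitochondrial genes took 15% of the FPKM sum in IEC12 replicate A against 1.95 to 9.78% in the other libraries. Endothelial markers were high in AOC, where the summed FPKM of the 10 markers found (of 12 listed) was 295 to 420. Of these 10 markers 8 reached an FPKM of 1 in all AOC libraries, but the list was not uniform, since KDR was 1.31 to 1.46 in AOC and 2.42 to 3.99 in IEC2, ENG was 0.361 to 1.23 in AOC, 1.58 to 3.58 in IEC2 and 2.46 to 3.83 in IEC4, and TIE1 was at most 0.809 in AOC. The summed level was 0.693 to 2.58 in IEC12, 4.62 to 5.57 in IEC4 and 5.53 to 9.28 in IEC2. CDH5, the cadherin that defines endothelial junctions, was listed at 0 in all 9 IEC libraries, and PECAM1, which encodes CD31, was at 0.0197 to 0.105 in IEC12 against 91.7 to 131 in AOC. The IEC12 label therefore goes against these markers, and the 3 IEC groups are called by their day of induction and not by a cell type. Markers of epithelial cells summed to 523, 686 and 1446 in IEC4 replicates A, B and C, against 118 to 152 in IEC2, 42.3 to 87.1 in IEC12 and 2.21 to 4.05 in AOC. Over the 12 libraries the other lists summed to 0 to 6.39 for pluripotent cells (2 of 7 genes found), 22.9 to 112 for fibroblasts or mural cells (9 of 9), 0.136 to 3.19 for neural crest (6 of 6) and 1.53 to 8.5 for mesothelium or epicardium (4 of 7). The neural list (7 of 9) summed to 371 to 398 in IEC12, which was nearly all STMN2 (370 to 397), and to at most 16.7 in the other groups.

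In outline, the members fell into 3 patterns. CRABP2 and RARB were the members at an FPKM above 10 in induced cells, and they were lower in AOC. ALDH1A1 and ALDH1A3 were the members above 10 in AOC, and they stayed under 3 in every IEC library. CYP26A1 was listed at 0 in IEC2 and reached its highest level in IEC4. RARA was low in all 12 libraries, and CRABP1, STRA6 and ALDH1A2 were at or near 0 throughout. The plot of FPKM per library shows these levels.

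**Figure D1:**
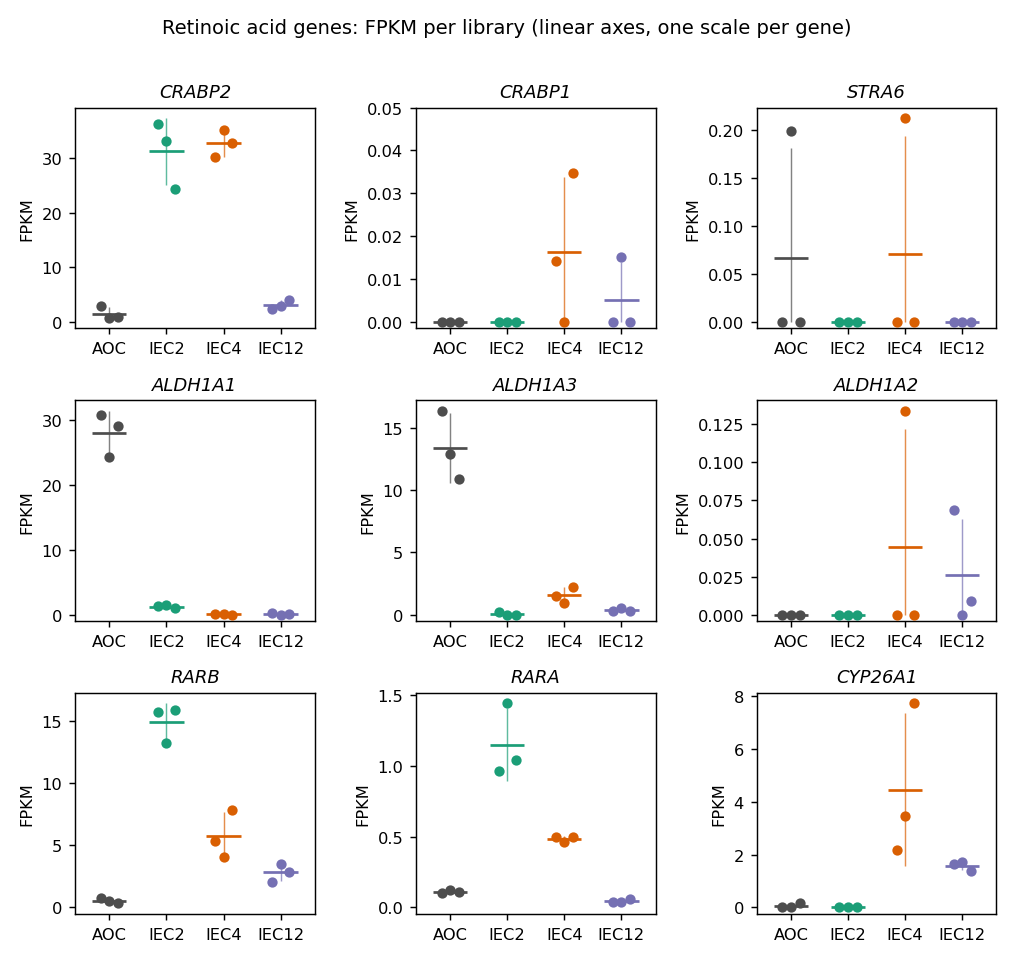
FPKM of the 9 retinoic acid genes in AOC, IEC2, IEC4 and IEC12, with 1 point per library (A, B and C from left to right), a horizontal line at the mean and a vertical line for the SD (n = 3), which is drawn from 0 where it would pass below 0. Each panel has its own linear axis, and the axes of CRABP1, STRA6 and ALDH1A2 end below 0.25 FPKM while that of CRABP2 passes 36.2.

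CRABP2 (ENSSSCG00000006472, chr4:93388198-93393861) encodes the binding protein that hands retinoic acid to its receptors. Its FPKM was 36.2, 33.2 and 24.4 in IEC2 replicates A, B and C, 30.2, 35.2 and 32.7 in IEC4, 2.42, 2.97 and 4.03 in IEC12, and 2.88, 0.631 and 0.917 in AOC. The IEC2 and IEC4 libraries overlapped and lay far above all libraries of IEC12 and AOC. The mean was 31.3 ± 6.15 (SD, n = 3) in IEC2, 32.7 ± 2.52 in IEC4, 3.14 ± 0.816 in IEC12 and 1.48 ± 1.22 in AOC. Between IEC4 and IEC2 the difference was 0.08 on the log2 scale (SE 0.19, 95% interval −0.36 to 0.51, limma adjusted p = 0.78), and its sign turned to −0.16 with median-of-ratios scaling and to −0.09 without IEC2 replicate C. From IEC4 to IEC12 CRABP2 fell by 3.04 (SE 0.19, limma adjusted p = 9.3e-06), and mean FPKM was 10.4-fold lower. Against IEC2, IEC12 was lower by a similar amount (log2 difference −2.96, limma adjusted p = 4.68e-06). In AOC the level was below IEC2 (log2 difference −3.79, SE 0.29, limma adjusted p = 3.39e-07) and below IEC4 (−3.87, limma adjusted p = 3.49e-07), and without AOC replicate A, the highest of its group, these differences were −4.17 and −4.25. Of the AOC libraries only replicate A reached an FPKM of 1, so CRABP2 passed the filter of that fit through the IEC groups, where it was higher.

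IEC12 and AOC, the neighbours at the low end of CRABP2, were less clearly apart. The difference was −0.83 (SE 0.29, limma adjusted p = 0.0265), but the libraries overlapped, since AOC replicate A at 2.88 lay above IEC12 replicate A at 2.42. The call was lost without AOC replicate B (−0.58, limma adjusted p = 0.117), without AOC replicate C (−0.70, 0.0924), without IEC12 replicate B (−0.85, 0.0546) and without IEC12 replicate C (−0.68, 0.0886). It was also lost with no filter (limma adjusted p = 0.0502), in a fit of both groups alone (0.0739) and with median-of-ratios scaling (−0.66, 0.0747), whereas a pseudocount of 0.1 gave −1.28 (0.0198). The order of CRABP2 was thus IEC4 and IEC2 together, then IEC12 and AOC, with only the step between these pairs beyond the spread of the libraries under all of these settings.

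CRABP1 (ENSSSCG00000021873, chr7:47602316-47608865) is the close relative of CRABP2. It was listed at 0 in 9 libraries, and its values above 0 were 0.0143 in IEC4 replicate A, 0.0347 in IEC4 replicate C and 0.0152 in IEC12 replicate B. After allowing for relative depth, these were 1.01, 2.01 and 1 times the smallest of them, as a gene with 1 or 2 fragments would give. CRABP1 did not pass the filter, and no difference between groups was detectable at this level.

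Of the proteins that bring retinol to cells, STRA6 (ENSSSCG00000001909, chr7:59317930-59347274), the membrane receptor for retinol-binding protein, was listed at 0 in 10 libraries. Its FPKM was 0.199 in AOC replicate B and 0.213 in IEC4 replicate B. No group had more than 1 library above 0, so STRA6 gave no comparison. RBP4, the retinol-binding protein of plasma that STRA6 recognises, was also near 0, with FPKM up to 0.138 in AOC and up to 0.0174 in the IEC libraries.

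The ALDH1A enzymes catalyse the last step of synthesis, and as a family they were expressed at a higher level in AOC than in any induced culture. The summed FPKM of the 3 genes was 47.2, 37.2 and 40 in AOC replicates A, B and C, and 0.391 to 2.23 in the 9 IEC libraries. ALDH1A1 made up 65.3 to 72.8% of this sum in AOC and ALDH1A3 the rest. In IEC2 the small sum was 87.7 to 100% ALDH1A1, and in IEC4 it was 83.5 to 100% ALDH1A3. The main family member thus differed between IEC2 and IEC4, at FPKM values that were low in both. As the genes of the family are similar in sequence, and how fragments shared between genes were assigned is not given in the sources used here, the shares are uncertain.

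**Figure D2:**
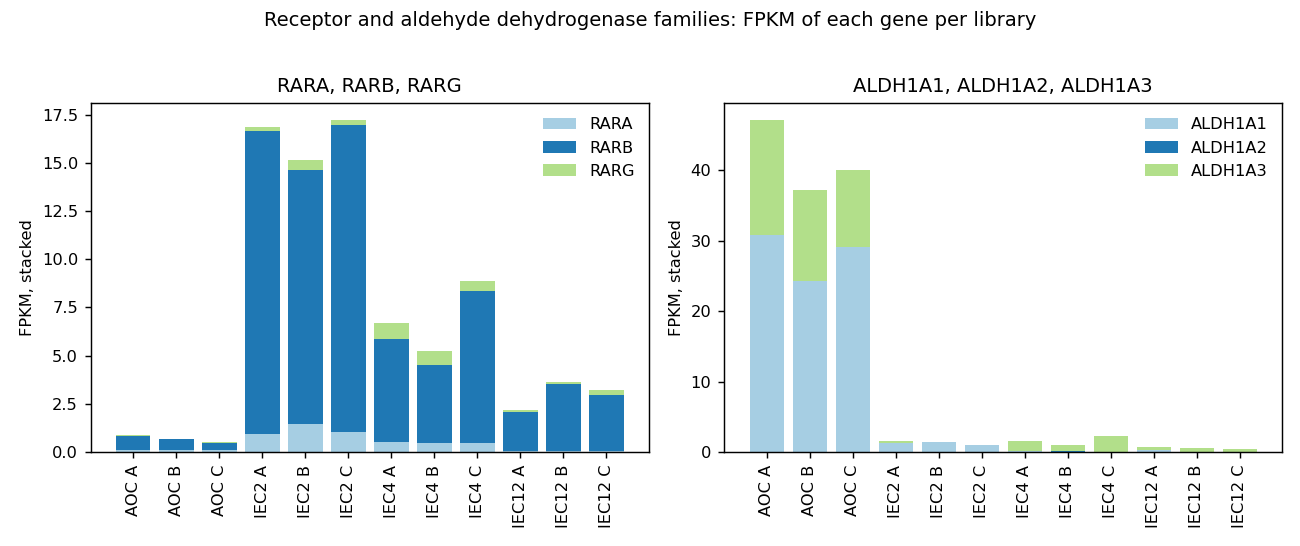
FPKM of the RAR receptors (left) and of the ALDH1A enzymes (right), stacked by gene, in each of the 12 libraries on linear axes that start at 0. RARB makes up most of every receptor bar, and the ALDH1A bars of AOC stand at 37.2 to 47.2 while all others are at 2.23 or below.

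ALDH1A1 (ENSSSCG00000028996, chr1:226163347-226217342) is the cytosolic retinal dehydrogenase, also known as a marker of some stem cells. Its FPKM was 30.8, 24.3 and 29.1 in AOC replicates A, B and C, 1.34, 1.45 and 0.957 in IEC2, 0.116, 0.0438 and 0 in IEC4, and 0.282, 0.0176 and 0.0536 in IEC12. All AOC libraries lay above all others, and the IEC2 libraries lay above those of IEC4 and IEC12, which overlapped. AOC was higher than IEC2 by 3.69 on the log2 scale (SE 0.16, limma adjusted p = 3.22e-09), a 22.5-fold difference of mean FPKM. The difference was 4.78 against IEC4 (SE 0.16, limma adjusted p = 4.87e-10) and 4.70 against IEC12 (SE 0.16, limma adjusted p = 6.11e-10), and a pseudocount of 0.1 raised these to 7.59 and 7.20. ALDH1A1 passed the filter only through AOC, where it was high, and it was not tested among the IEC groups. With no filter, it was lower in IEC4 than in IEC2 by 1.09 (limma adjusted p = 0.000684) and did not pass the threshold between IEC12 and IEC4 (0.08, 95% interval −0.20 to 0.35, limma adjusted p = 0.669).

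ALDH1A3 (ENSSSCG00000004822, chr1:139451080-139491514) acts on the same substrate and is known from the developing eye and nose. Its FPKM was 16.4, 12.9 and 10.9 in AOC, 0.187, 0 and 0 in IEC2, 1.5, 0.901 and 2.23 in IEC4, and 0.313, 0.572 and 0.329 in IEC12. The groups did not overlap, in the order AOC, IEC4, IEC12 and IEC2. AOC was higher than IEC4 by 2.52 (SE 0.21, limma adjusted p = 8.99e-07), an 8.67-fold difference of mean FPKM. Against IEC12 the difference was 3.34 (SE 0.21, limma adjusted p = 9.16e-08), and against IEC2 it was 3.75 (SE 0.21, limma adjusted p = 2.87e-08), or 6.55 with a pseudocount of 0.1. This gene too passed the filter only through AOC. With no filter, IEC4 was higher than IEC2 by 1.23 (limma adjusted p = 0.00335) and higher than IEC12 (IEC12 minus IEC4 −0.83, limma adjusted p = 0.0165), while IEC12 minus IEC2 was 0.40 (limma adjusted p = 0.18). In the RefSeq annotation a predicted gene, LOC106509041, overlaps ALDH1A3, and its fragments could not be told apart here.

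ALDH1A2 (ENSSSCG00000025578, chr1:113932722-114037059) is the main enzyme of retinoic acid synthesis in the mesoderm of early embryos. It was listed at 0 in all AOC and IEC2 libraries. Its FPKM was 0.134 in IEC4 replicate B, 0.0686 in IEC12 replicate A and 0.0088 in IEC12 replicate C, and 0 in the other IEC4 and IEC12 libraries. After allowing for relative depth these were 17.09, 5.01 and 1 times the smallest, and no group had values above 0 in all 3 replicates. ALDH1A2 did not pass the filter.

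RARB (ENSSSCG00000011212, chr13:12336387-12507688), the retinoic acid receptor beta, was the RAR gene with the highest FPKM in every library. Its FPKM was 15.7, 13.2 and 15.9 in IEC2 replicates A, B and C, 5.36, 4.05 and 7.84 in IEC4, 2.06, 3.5 and 2.89 in IEC12, and 0.74, 0.54 and 0.384 in AOC. The 4 groups did not overlap, in the order IEC2, IEC4, IEC12 and AOC. IEC4 was lower than IEC2 by 1.27 on the log2 scale (difference −1.27, SE 0.23, limma adjusted p = 0.00256), or 2.59-fold in mean FPKM. IEC12 was lower than IEC2 by 5.29-fold (−2.07, limma adjusted p = 0.00012), and AOC was lower than IEC2 by 26.9-fold (−3.36, SE 0.22, limma adjusted p = 9.52e-08). AOC was also below IEC4 (−2.09, limma adjusted p = 5.54e-06) and below IEC12 (−1.29, SE 0.22, limma adjusted p = 0.000329), differences that were −3.15 and −2.16 with a pseudocount of 0.1. RARB passed the filter of the fit with AOC only through the IEC groups, where it was higher, so its tests against AOC are not independent of the filter.

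The step of RARB from IEC4 to IEC12 was the least certain of these. It was −0.80 (SE 0.23, limma adjusted p = 0.0207) with all libraries, −0.59 without IEC4 replicate C (limma adjusted p = 0.0643) and −0.65 without IEC12 replicate A (limma adjusted p = 0.058). IEC4 replicate C held the highest RARB of its group, and IEC12 replicate A, the library of least relative depth and highest mitochondrial share, held the lowest of its group. Whether depth or RNA quality takes part in this difference was not tested.

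RARA (ENSSSCG00000017475, chr12:22047449-22085759), the receptor alpha, is the RAR gene that most adult tissues express. Its FPKM was 0.965, 1.44 and 1.04 in IEC2, 0.499, 0.461 and 0.494 in IEC4, 0.0396, 0.04 and 0.057 in IEC12, and 0.103, 0.123 and 0.107 in AOC. The groups did not overlap, in the order IEC2, IEC4, AOC and IEC12. RARA reached an FPKM of 1 in 2 libraries and did not pass the filter. With no filter, it was lower in IEC4 than in IEC2 (−0.53, limma adjusted p = 0.00629) and lower in IEC12 than in IEC4 (−0.51, limma adjusted p = 0.00699). In the same fit AOC was lower than IEC2 (−0.94, limma adjusted p = 4.25e-06) and IEC4 (−0.42, limma adjusted p = 0.00117), and did not pass the threshold against IEC12 (0.09, 95% interval −0.08 to 0.26, limma adjusted p = 0.433).

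RARG, the third gene of the family, is no member but completes the receptors. Its FPKM was 0.0777 to 0.293 in IEC12, 0.534 to 0.844 in IEC4, 0.193 to 0.495 in IEC2 and 0.0125 to 0.0258 in AOC. The RAR sum was 2.18 to 3.64 in IEC12, 5.24 to 8.87 in IEC4, 15.1 to 17.3 in IEC2 and 0.504 to 0.869 in AOC, and RARB made up 76.2 to 96.2% of it. The partner receptors were low as well, with RXRA at up to 0.295, RXRB at up to 1.09 and RXRG at up to 0.216 FPKM in any library.

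CYP26A1 (ENSSSCG00000010475, chr14:104561394-104567099), the hydroxylase that starts the breakdown of retinoic acid, had a pattern of its own among the members. It was listed at 0 in all 3 IEC2 libraries, and its FPKM was 2.19, 3.45 and 7.72 in IEC4 replicates A, B and C, 1.64, 1.73 and 1.38 in IEC12, and 0, 0 and 0.177 in AOC. IEC4 lay above IEC12, and both lay above IEC2 and AOC, without overlap. The mean was 4.45 ± 2.9 (SD, n = 3) in IEC4 and 1.58 ± 0.182 in IEC12. IEC4 was higher than IEC2 by 2.32 on the log2(FPKM + 1) scale (SE 0.31, limma adjusted p = 0.00043) and by 5.32 with a pseudocount of 0.1, and no fold is given because IEC2 was listed at 0. IEC12 was higher than IEC2 by 1.36 (SE 0.31, limma adjusted p = 0.00636), or 4.06 with that pseudocount. AOC was lower than IEC4 (−2.24, SE 0.28, limma adjusted p = 2.43e-05) and lower than IEC12 (−1.29, SE 0.28, limma adjusted p = 0.00191), and AOC minus IEC2 was 0.08 (95% interval −0.53 to 0.69, limma adjusted p = 0.822). With the smaller pseudocount the differences of AOC from IEC4 and IEC12 were −4.83 and −3.57. CYP26A1 passed the filter only through IEC4 and IEC12, where it was high.

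From IEC4 to IEC12 CYP26A1 was lower by 0.95 (log2 difference −0.95, SE 0.31, limma adjusted p = 0.0326), and this call was close to the threshold of 0.05. It was lost without IEC4 replicate B (−1.03, limma adjusted p = 0.0586), without IEC4 replicate C (−0.55, 0.0562), and without IEC12 replicate A (−0.97, 0.0602), B (−0.99, 0.0688) or C (−0.89, 0.0712). A pseudocount of 0.1 (−1.25, limma adjusted p = 0.0503), no filter (0.0702), a fit of both groups alone (0.0661) and median-of-ratios scaling (−0.77, 0.0529) lost it as well. Among the IEC4 libraries, CYP26A1 followed the order of the epithelial marker sum given above, with replicate A lowest and replicate C highest. In that list of 6 genes found (of 7 listed), KRT8 ranged from 300 to 748 and CLDN6 from 202 to 612 in IEC4, and 5 of the 6 were at an FPKM of at least 1 in all 3 IEC4 libraries and none at 0. The epithelial sum was higher in IEC2 than in IEC12, but most of it was CLDN6 (86.9 to 130 in IEC2, 37.1 to 70.5 in IEC12). ESRP1 was also higher in IEC2, and KRT8 and KRT18 overlapped. CDH1 (0.0613 to 0.229 in IEC2, 0.281 to 0.418 in IEC12) and EPCAM (0 in IEC2, 0.099 to 0.333 in IEC12) were higher in IEC12. CYP26A1 was listed at 0 in IEC2 and was above 0 in all IEC12 libraries. Over IEC4 replicates A, B and C the mitochondrial share also rose (4.28, 5.11 and 7.1%) and relative depth fell (1.2, 1.13 and 0.987). The part of epithelial cells, RNA quality or depth in the level of CYP26A1 was not tested.

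Counted over the members, IEC4 against IEC2 gave 2 calls among the 3 members tested, with CYP26A1 higher and RARB lower, where 37.3% of the 10542 genes tested were called. IEC12 against IEC4 gave 3 calls of 3, all lower (44.2% of all genes tested), and IEC12 against IEC2 gave 3 of 3 with only CYP26A1 higher (43.6%). AOC against IEC2 gave 4 of 5 (63.8% of 11053 genes), AOC against IEC4 gave 5 of 5 (69.1%) and AOC against IEC12 gave 5 of 5 (58.5%), with ALDH1A1 and ALDH1A3 higher in AOC each time. Since many genes were called in every comparison and the filter itself chose the members tested, these counts set the members apart in no comparison. Under stricter limits, a p-value and an adjusted p-value under 0.001 and a log2 difference beyond 3, only CRABP2 remained between IEC12 and IEC4 (0.939% of all genes), and no member remained in IEC4 against IEC2 (1.18%) or IEC12 against IEC2 (1.22%). In AOC the same limits kept CRABP2, RARB, ALDH1A1 and ALDH1A3 against IEC2 (5.47%), CRABP2 and ALDH1A1 against IEC4 (5.17%), and both ALDH1A genes against IEC12 (4.41%). With no filter the share of all genes called was 22.3% for IEC4 against IEC2, 26.1% for IEC12 against IEC4, 24.3% for IEC12 against IEC2, and 41.1, 47.8 and 38.2% for AOC against IEC2, IEC4 and IEC12. The libraries of both groups did not overlap in 53.5% of the genes tested for IEC4 against IEC2, 56.3% for IEC12 against IEC4, 54.4% for IEC12 against IEC2, and 71.5, 76.2 and 66.3% for AOC against IEC2, IEC4 and IEC12, which bears on each statement on overlap made above. The plot of differences shows each value with its interval.

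**Figure D3:**
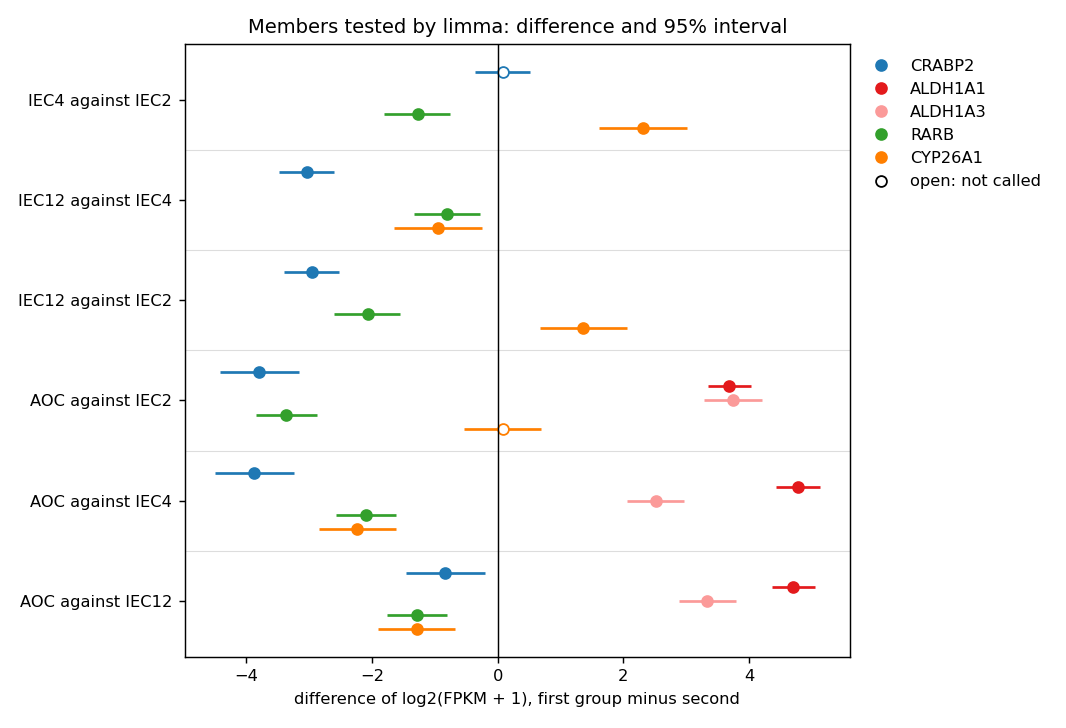
Differences of mean log2(FPKM + 1) for the members tested by limma in each of the 6 comparisons, first group minus second, with the 95% interval as a line and filled points for adjusted p under 0.05. CRABP2 in IEC4 against IEC2 (0.08) and CYP26A1 in AOC against IEC2 (0.08) are the open points, and only the ALDH1A genes lie to the right of 0 in all 3 comparisons with AOC.

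The median difference over all genes tested was not 0 on these values, at 0.20 for IEC4 against IEC2, −0.15 for IEC12 against IEC4, 0.03 for IEC12 against IEC2, and −0.20, −0.45 and −0.21 for AOC against IEC2, IEC4 and IEC12. Median-of-ratios scaling brought these medians to between −0.02 and 0.04, and scaling to equal totals to between −0.65 and 0.14. Of the 24 member differences, CRABP2 between IEC4 and IEC2 was the only one to turn its sign under either scaling.

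A wider list of 63 other retinoid genes covered enzymes of synthesis and storage, binding proteins, the other CYP26 enzymes, receptors with their co-regulators, and genes known to respond to retinoic acid. Of these, 54 were found and 27 passed the filter. In IEC4 against IEC2, 9 were higher (24.8% of all genes tested) and 6 lower (12.5%), with a median difference of 0.18 beside 0.20 over all genes. Among the 9, BCO1, CREBBP and RARRES2 passed the filter only through IEC4, where they were high, and the counts with IEC4 are not independent of the filter for them. In IEC12 against IEC4, 8 were higher (17.3%) and 9 lower (26.9%), with a median of 0.21, and in IEC12 against IEC2, 6 were higher (24.2%) and 8 lower (19.3%), with a median of 0.06. AOC against IEC2 had 7 higher (26.7%) and 14 lower (37.1%), AOC against IEC4 had 7 higher (22.1%) and 19 lower (47%), and AOC against IEC12 had 4 higher (22.4%) and 16 lower (36.2%). The medians with AOC were −0.53, −0.87 and −0.59, each below the median over all genes. Genes of the list that were under an FPKM of 1 in AOC passed the filter of that fit through the IEC groups. The counts and medians with AOC are therefore not independent of the filter.

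Among the enzymes of synthesis and storage, 16 of 18 were found and 11 tested. IEC4 against IEC2 gave 4 higher and 1 lower, where 24.8% and 12.5% of all genes tested were higher and lower. The share called was 45.5% of the 11 and 37.3% of all genes, and counts this small do not set the list apart. The gene called lower was LRAT, which stores retinol as esters. Its FPKM was 49.2, 65.5 and 71.1 in IEC2, 1.85, 4.96 and 2.74 in IEC4 and 6.65, 8.56 and 8.95 in IEC12, and it was listed at 0 in AOC. IEC4 was lower than IEC2 by 3.96 (difference −3.96, SE 0.27, limma adjusted p = 8.51e-06), and IEC12 was higher than IEC4 by 1.17 (limma adjusted p = 0.00646). DHRS3, which turns retinal back into retinol, had FPKM of 71.5, 66.1 and 45 in AOC, 1.81 to 4.42 in IEC12, 8.62 to 13.3 in IEC4 and 2.32 to 3.18 in IEC2. It rose from IEC2 to IEC4 by 1.60 (SE 0.28, limma adjusted p = 0.00183), fell by 1.37 from IEC4 to IEC12 (limma adjusted p = 0.0037), and was higher in AOC than in IEC2 by 4.06 (limma adjusted p = 1.14e-07). Like CYP26A1, DHRS3 was thus highest in IEC4 among the IEC groups, but unlike CYP26A1 it was highest of all in AOC.

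DHRS9, which oxidises retinol, had FPKM of 31.8, 29.1 and 29.7 in AOC, 0 to 0.132 in IEC12, 1.34 to 3.97 in IEC4 and 0.873 to 4.09 in IEC2. AOC was higher than IEC2 by 3.34 (limma adjusted p = 3.88e-06) and than IEC12 by 4.86 (limma adjusted p = 2.12e-07), so that AOC was high in this enzyme of the first step as well as in ALDH1A1 and ALDH1A3. RDH10, the main retinol dehydrogenase of embryos, went the other way, at 0.237 to 0.545 in AOC, 4.22 to 4.42 in IEC12, 1.39 to 3.87 in IEC4 and 2.32 to 2.71 in IEC2. It was lower in AOC than in each IEC group (−1.34, −1.19 and −1.94 against IEC2, IEC4 and IEC12, limma adjusted p at most 0.000668). RDH10 passed the filter of that fit only through the IEC groups, where it was higher.

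**Figure D4:**
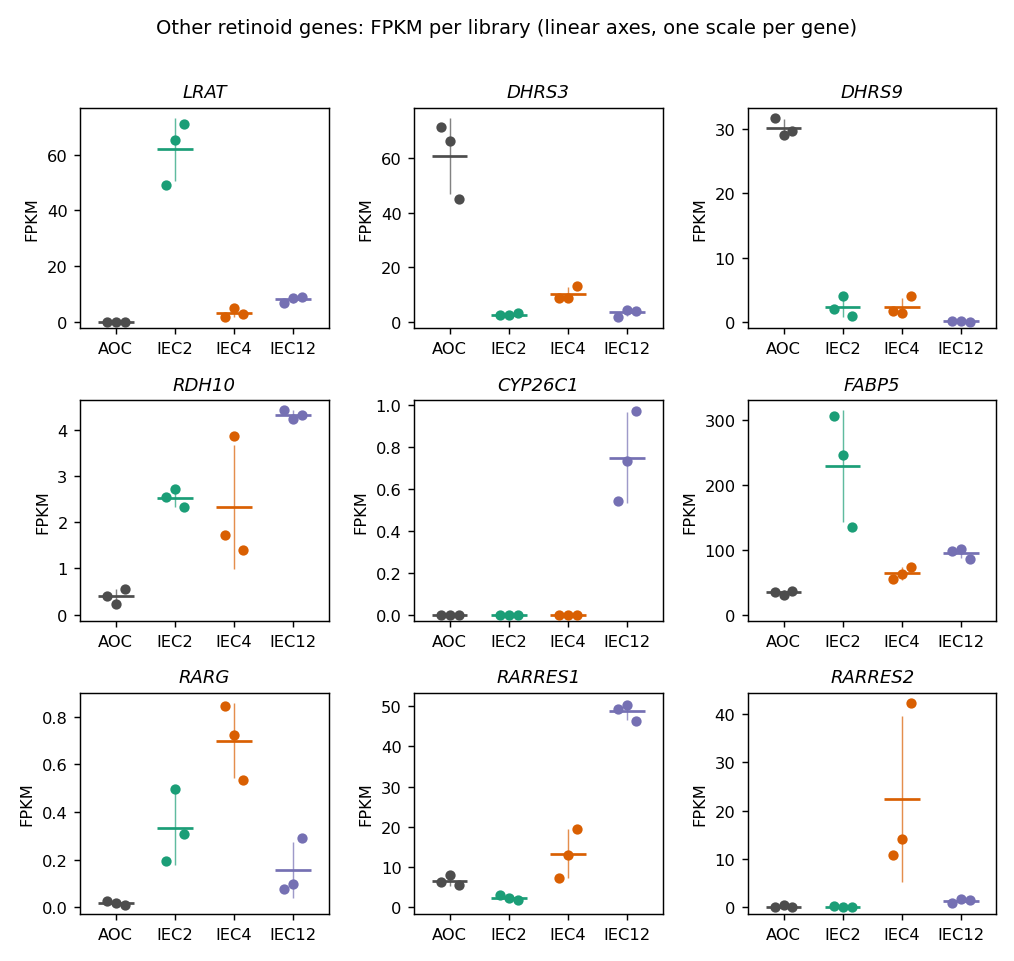
FPKM of 9 other retinoid genes in the 4 groups, with 1 point per library (A, B and C from left to right), the mean as a horizontal line and the SD (n = 3) as a vertical line, on linear axes with a scale for each gene. LRAT and FABP5 are highest in IEC2, RARRES2 in IEC4, RARRES1 in IEC12, and DHRS3 and DHRS9 in AOC.

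Among the other binding proteins, FABP5, a fatty acid binding protein that also carries retinoic acid, had FPKM of 307, 246 and 136 in IEC2, 54.5, 62.8 and 73.8 in IEC4, 98.6, 102 and 86.2 in IEC12, and 35.4, 30.4 and 36.8 in AOC. It was lower in IEC4 than in IEC2 by 1.77 (difference −1.77, SE 0.26, limma adjusted p = 0.00071), whereas the interval of the CRABP2 difference between them included 0. The ratio of FABP5 to CRABP2 in FPKM was 21.4 to 40.7 in IEC12, 1.78 to 2.26 in IEC4, 5.6 to 8.49 in IEC2 and 12.3 to 48.2 in AOC. The ratio was therefore lowest in IEC4 and did not overlap between the 3 IEC groups, while IEC12 and AOC overlapped.

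The other CYP26 enzymes stayed low. CYP26B1 had FPKM up to 0.299 in any library, and CYP26C1 was listed at 0 in all libraries but those of IEC12, where it was 0.542, 0.731 and 0.973. Of the CYP26 sum, CYP26A1 held 95.4 to 96.3% in IEC4 and 54.7 to 70.1% in IEC12, where CYP26C1 held 23.2 to 38.7%. Neither CYP26B1 nor CYP26C1 passed the filter.

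Receptors and co-regulators numbered 13 of 13 found and 7 tested. No receptor of this list passed the filter, so the 7 were all co-regulators and the counts say nothing of the receptors. None of the 7 was called higher in AOC in any of the 3 comparisons, with 5 called lower against IEC2, 6 against IEC4 and 6 against IEC12. Over all genes tested, 37.1, 47 and 36.2% were lower in AOC in these comparisons and 26.7, 22.1 and 22.4% higher. Of the 7, only NCOR1 reached an FPKM of 1 in all AOC libraries (5.11 to 6.88). The others passed the filter of that fit only with IEC libraries, and their means were higher in the IEC groups. The counts of these co-regulators with AOC are therefore not independent of the filter. Among the 15 genes found (of 21 listed) that are known to respond to retinoic acid, 7 were tested. RARRES1, first described as a gene induced by a retinoid in skin, had FPKM of 3.05, 2.48 and 1.77 in IEC2, 7.34, 13.1 and 19.6 in IEC4, 49.3, 50.4 and 46.4 in IEC12 and 6.39, 8.15 and 5.55 in AOC, and IEC12 was higher than IEC2 by 3.87 (SE 0.29, limma adjusted p = 1.13e-05). RARRES2, which encodes chemerin, had FPKM of 10.9, 14.1 and 42.2 in IEC4, at most 0.362 in IEC2, 0.854 to 1.73 in IEC12 and at most 0.428 in AOC. IEC4 was higher than IEC2 by 4.12 (SE 0.42, limma adjusted p = 8.47e-05), and IEC12 was lower than IEC4 (−3.09, SE 0.42, limma adjusted p = 0.000471), but RARRES2 passed the filter only through IEC4. The responsive genes thus did not share 1 pattern, as RARB was highest in IEC2, CYP26A1 and RARRES2 in IEC4, and RARRES1 in IEC12. In IEC4, RARRES2 was also highest in replicate C, where the epithelial marker sum and the mitochondrial share were highest and relative depth was lowest of that group. The part of epithelial cells, RNA quality or depth in the level of RARRES2 was not tested.

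For the members whose group means spanned at least 3 on the log2 scale, the 3 genes of most similar pattern over the 12 libraries were sought by the root-mean-square difference of centred log2(FPKM + 1). SLC7A5 (0.44), IL16 (0.46) and ESRP1 (0.50) were nearest to CRABP2, and ESRP1 is also on the epithelial marker list. The FPKM of SLC7A5, an amino acid transporter, averaged 45.2 in IEC2, 35.6 in IEC4, 4.36 in IEC12 and 1.59 in AOC. RUFY3 (0.25), SUSD6 (0.27) and WLS (0.29) were nearest to RARB, and WLS, which carries Wnt proteins to the cell surface, averaged 204, 81.2, 37.7 and 24.8 in IEC2, IEC4, IEC12 and AOC. PCDH17 (0.46), TMEM26 (0.46) and HES2 (0.47) were nearest to ALDH1A1, and SQOR (0.24), SAMD12 (0.26) and ABHD6 (0.27) to ALDH1A3. These values describe likeness over 12 libraries in 4 groups, and likeness of this kind comes largely from the order of the group means. The group means of CYP26A1 spanned 2.32, so no genes were sought for it.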

How the data were processed

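RNA was amplified by Smart-Seq2 and made into libraries with the SMARTER kit, per the labels, and sequenced on an Illumina HiSeq instrument. The authors processed the reads in Galaxy, and the deposited tables hold, for each library, 1 FPKM value per gene. The submitters' processing notes name Bowtie2 2.2.3, TopHat2 2.0.12, Cufflinks 2.2.1 and the build susScr11, with no settings, and the annotation and any scaling between libraries are not given in the sources used here. Smart-Seq2 does not keep the strand. Groups and replicate letters came from the sample titles. Symbols were taken from a table that held 13998 of the 19681 identifiers. Coordinates are RefSeq gene spans of Sscrofa11.1, the same assembly as susScr11, and all 9 members matched by symbol.

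Tests used limma 3.58.1 (R 4.3.3) with lmFit, contrasts.fit and eBayes (trend = TRUE) on log2(FPKM + 1), without covariates, for genes that reached 1 FPKM in at least 3 libraries of the fit. The 9 IEC libraries (10542 genes) gave the comparisons among stages and all 12 (11053 genes) those with AOC, and the fits were tested on simulated data. No gene set test was run. The number of reads is unknown, so no counting interval is given. Relative depth was estimated from 3673 genes under 0.2 FPKM in every library, whose values are multiples of what 1 fragment is worth. A value of 0 may be a failed estimate, although 0 of 21 housekeeping genes found (of 25 listed) were at 0 in any library. In no pair of replicates did any gene above 0 hold identical values. Python 3.11.15, NumPy 2.4.6, pandas 2.3.3 and matplotlib 3.10.9 were used. The members and the gene lists were chosen with earlier results of these data known. All members were named. Of the other lists, RARG, the RXR genes, CYP26B1, CYP26C1, RDH10, DHRS3, LRAT, RBP4 and FABP5 were named, and others where a called difference exceeded 3 on the log2 scale, except 1 gene that is not reported here. Marker genes, LOC106509041 and the genes of similar pattern were named besides. Alternatives were a pseudocount of 0.1, no filter, only the groups compared, a replicate block, a variance not tied to expression, median-of-ratios scaling, equal totals, the stricter limits of the study, and each library left out in turn.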

Additional observations from a re-analysis of the deposited data

How the results depend on the processing

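Of 452 member differences recomputed under the alternatives, from 24 results, 419 kept their side of the threshold without a change of direction (among them CYP26A1 in AOC against IEC2 without AOC replicate C, which was 0.00 and had no direction), 31 kept the direction and lost the call, and 2 turned, namely CRABP2 in IEC4 against IEC2 with median-of-ratios scaling (−0.16) and without IEC2 replicate C (−0.09, within a range of −0.09 to 0.19 with a library left out). The stricter limits took 13 of the 31, and the others were CRABP2 in AOC against IEC12 and RARB and CYP26A1 in IEC12 against IEC4. Members called in IEC4 against IEC2 numbered 2, and 0 under the stricter limits, 5 with no filter (22.3% of all genes called) and 4 with equal totals (34.2%). In IEC12 against IEC4 they numbered 3, and 1 under the stricter limits and 1 to 3 with a library left out. In IEC12 against IEC2 they numbered 3, and 0 under the stricter limits, 5 with no filter (24.3% of all genes) and 5 with equal totals (40.8%). Under the stricter limits, AOC against IEC4 and AOC against IEC12 gave 2 each. More members were tested with no filter (9) and with equal totals (5), and other causes were not tested. With the replicate block each of the 24 differences stayed on its side of the threshold (IEC4 against IEC2 again gave 2 members), but the letters share only a letter, since the mean correlation of deviations between same-lettered libraries was −0.271 to 0.156. Scaling also moved the split over all genes, since higher genes made up 66.5% of calls in IEC4 against IEC2 as deposited and 49.6% with median-of-ratios scaling, and 32% and 50.7% in AOC against IEC4. CRABP1, STRA6, ALDH1A2 and RARA did not pass the filter, and the values above 0 of CRABP1 lay at 1 or 2 times the smallest after allowing for depth, so no difference of CRABP1 was detectable at this depth.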
